A study of Mus musculus with 6 samples.

Results

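The genes described here are 9 transcripts of the circadian clock: the activators Arntl (also called Bmal1), Clock, Npas2 and Rora, the PAR bZIP factors Dbp, Tef and Hlf, their opponent Nfil3, and the clock output Usp2. They were taken by symbol from the 55401 genes of the deposited count table, each matching 1 Ensembl identifier, and all 9 passed the low-count filter that kept 17394 genes. The series measured poly(A) RNA in fresh liver tissue of C57BL/6 mice, with 1 library per sample. The 3 OP samples were livers of animals given okra polysaccharide, plant carbohydrate prepared from okra, and their labels do not name a diet. The 3 HFCF samples were livers of animals fed high amounts of fat, cholesterol and fructose, and the series as used here holds no standard-diet group. Whether each sample was its own animal is not stated, so the p-values speak of the spread among these samples, some of which may be technical. The sources used here do not give the time of day at which the livers were taken.

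The clock in liver cells is a feedback loop of transcription. ARNTL pairs with CLOCK, or with its relative NPAS2, and the pair binds E-boxes in target genes, among them Dbp and the genes of its own repressors, the PER, CRY and REV-ERB proteins. RORA and its relatives activate Arntl through ROR elements, at which the REV-ERB proteins repress it, and the PAR bZIP factors and NFIL3 compete with opposite effect for D-boxes in genes of metabolism and detoxification. Transcripts of Arntl and of Dbp peak at nearly opposite times of day in mouse liver, so that in such tissue the hour of sampling sets much of their level.

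Elements of this loop were searched for in the promoter windows of the RefSeq table (build GRCm38.p6, another build than the GRCm39 of the counts), which held at least 1 window for each of the 9 genes. The Arntl and Tef windows are shown because they hold letters of the ROR element and of the E-box, and the Nfil3 piece for comparison. Capitals mark the match.
Arntl, first element: attggtcggAAAGTAGGTTAgtggtgcga
Arntl, second element: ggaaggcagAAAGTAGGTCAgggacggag
Nfil3: gctcggaacTGACCTactaacaca
Tef, first start: ctgtggctcCACGTGctgcagctg
Tef, second start: ctggcccagCACGTGtctacatcg
The Arntl pieces lie on the plus strand at chr7:113207492-113207520 and chr7:113207528-113207556, and their elements begin 10 bases before and 26 bases after one of the gene's annotated starts. Relative to its other annotated start the first element begins 36 bases after it, and the second lies beyond that start's window. Both match a long form of the ROR element, the letters in capitals with the next-to-last one free, which was searched on both strands after the Arntl sequence had been seen. It occurs in 0.0609% of the 32851 windows of the table. The second piece also holds the core AGGTCA, which lies within that long form and occurs in 16.3% of all windows. The Nfil3 piece, on the minus strand at chr13:52981037-52981060, reads TGACCT, the reverse complement of that core, and 1 of the Clock windows holds the core as well. The Tef pieces lie on the plus strand at chr15:81802537-81802560 and chr15:81811267-81811290 and hold the E-box CACGTG, found in 7.15% of all windows. The E-box variant CACGTT (4.68% of all windows) and the D-box TTANGTAA (2.32%) were not among the letters of any of the 9 genes' windows. The windows of Npas2, Rora, Dbp, Hlf and Usp2 held none of the letters searched for, the E-box included. A match is a description of letters and not a site of binding.

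At the level of the whole table, total counts ranged from 50635853 to 61918541 in the OP libraries and from 46459980 to 58822973 in the HFCF libraries. The share of counts in the 13 mitochondrial mRNAs was 9.31 ± 4.44% in OP and 18.3 ± 4.01% in HFCF (SD, n = 3 each), so it moved with the group, although HFCF replicate 3 was slightly below OP replicate 3. Hepatocyte markers (Alb, Apoa1, Ttr, Cps1, Cyp3a11, Hnf4a), which check the labelled tissue, summed to between 45547 and 69730 CPM (counts relative to scaled library size) in OP and between 29300.3 and 49123 CPM in HFCF, with 1 of the 6 higher and 2 lower. Of all genes tested, 3.26% passed as higher and 3.47% as lower at an adjusted p of 0.05 in edgeR's quasi-likelihood test. Red cell markers passed as lower in 3 of 4, and the 4 summed to 175 to 360.4 CPM in OP and 770 to 1425 CPM in HFCF. Alas2 went the other way, with 59.5, 70.1 and 59.7 CPM in OP, against 49.4, 47.9 and 53.8 CPM in HFCF. Its log2 fold change was 0.33 (adjusted p = 0.178 in the same test). The 6 Kupffer cell markers summed to 96.3 to 146 CPM in OP and 154 to 205 CPM in HFCF. Of these 6, 0 passed, and the groups overlapped for each marker taken singly. The summed levels of lymphocyte, stellate cell, endothelial and cholangiocyte markers overlapped between the groups. Adipocyte markers summed to 17.5 to 86.6 CPM in OP and 6.51 to 26.5 CPM in HFCF. Of the 6 listed 4 were tested, 0 passed, and all 4 had a log2 fold change above 0 (median 2.61). Of all 17394 genes tested 8939 were above 0. Adipoq and Plin1 had 0 counts in OP replicate 1 and in HFCF replicates 1 and 2. Fabp4 overlapped between the groups. The fourth, Cfd, the gene of adipsin, had 12.2, 26.5 and 63.01 CPM in OP, against 0, 0.104 and 3.32 CPM in HFCF. Its groups did not overlap (adjusted p = 0.0626 in edgeR's quasi-likelihood test), and 15.8% of all genes were higher without overlap. The part of these differences in the results on the clock genes was not tested, apart from a fit with the mitochondrial share as a covariate. In bulk tissue, fewer cells of a type and less RNA per cell cannot be told apart.

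Of the 9 clock genes, 0 passed an adjusted p of 0.05 in edgeR's quasi-likelihood test, adjusted after Benjamini and Hochberg over all 17394 genes, against 6.73% of all genes tested (3.26% higher and 3.47% lower). At an unadjusted p under 0.05 there were 2, Dbp and Usp2, of 9, against 25.2% of all genes. DESeq2, run as an alternative, called the same 2 genes, Usp2 higher and Dbp lower, but it called 14.5% of all genes (7.2% higher and 7.26% lower), and limma-voom called 0, against 7.58% of all genes. Without HFCF replicate 3, edgeR called Usp2 as higher, against 3.35% of the genes then tested. The median log2 fold change of the 9 was -0.23, against 0.019 over all genes tested. In 6 of the 9 the OP libraries did not overlap the HFCF libraries, against 31.2% of all genes (15.8% higher and 15.4% lower): Arntl, Clock, Npas2, Dbp and Tef were below in each OP library and Usp2 was above. With libraries scaled by total counts alone, the Clock libraries overlapped and the other 5 did not.

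**Figure D1:**
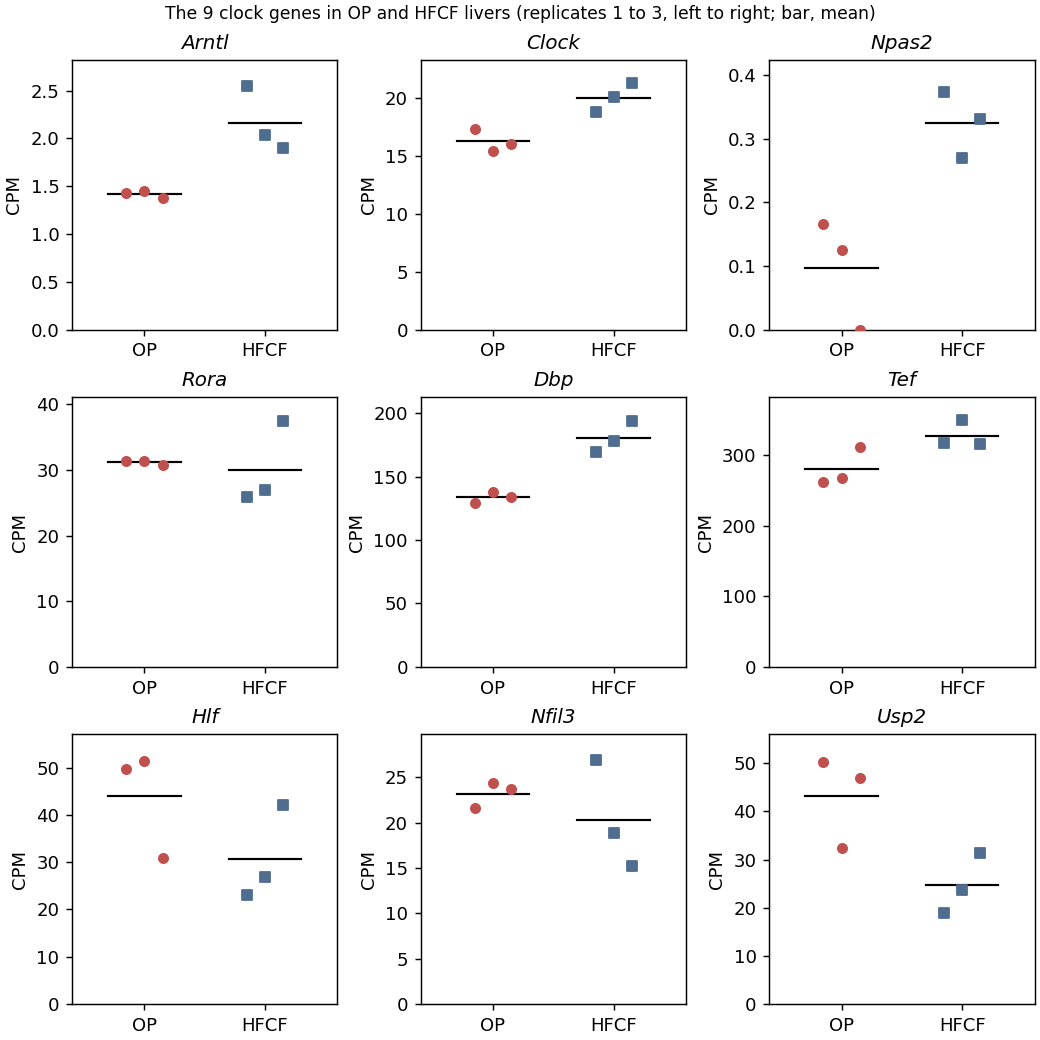
Level of each of the 9 genes in CPM (vertical axis, from 0) in the 3 OP libraries (circles, left) and the 3 HFCF libraries (squares, right), with the group mean as a bar. The OP points lie below the HFCF points for Arntl, Clock, Npas2, Dbp and Tef and above them for Usp2, and the groups overlap for Rora, Hlf and Nfil3.

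Arntl, whose protein is the partner shared by CLOCK and NPAS2, had 1.43, 1.45 and 1.37 CPM in the OP libraries (replicates 1, 2 and 3), against 2.55, 2.04 and 1.899 CPM in the HFCF libraries. The OP libraries were alike and all below the HFCF libraries, among which replicate 1 was the highest. OP differed from HFCF by a log2 fold change of -0.61 ± 0.289 (SE), with a 95% interval of -1.27 to 0.054 and an adjusted p of 0.233 in the edgeR test. These levels rest on 86, 92 and 66 counts in OP and 123, 98 and 115 counts in HFCF. Its log2 fold change with 1 library left out ran from -0.69 to -0.47.

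Clock, the other subunit of the activator, had 17.3, 15.4 and 16.1 CPM in OP, against 18.8, 20.04 and 21.2 CPM in HFCF. The group means were 16.2 ± 0.950 CPM in OP and 20.03 ± 1.22 CPM in HFCF. Every OP library was below every HFCF library, by a narrow margin, and the difference was -0.30 ± 0.133 on the log2 scale, with a 95% interval of -0.61 to 0.0018 and an adjusted p of 0.2 in the edgeR test.

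Npas2, which can stand in for CLOCK as partner of ARNTL, was near the limit of detection, with 10, 8 and 0 counts in OP, against 18, 13 and 20 counts in HFCF. In CPM these were 0.167, 0.126 and 0 in OP, against 0.373, 0.270 and 0.330 in HFCF. If each count is 1 read pair, the 0 in OP replicate 3 allows up to 0.0625 CPM, the level of 3 counts there. That bound covers counting error only, and it would be higher if read pairs were counted several times. A count of 4 was commoner than 3 or 5 in every library, so a read pair may have been counted several times, and these few counts may stand for still fewer read pairs. The log2 fold change of -1.68 ± 0.997 had a 95% interval of -3.96 to 0.60, the widest of the 9 genes, and an adjusted p of 0.338 in the edgeR test.

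Rora, a nuclear receptor that activates Arntl, had 31.4, 31.3 and 30.7 CPM in OP, against 25.8, 26.9 and 37.4 CPM in HFCF. The OP libraries fell inside the range of the HFCF libraries, of which replicate 3 was above and the other two below. The log2 fold change was 0.051 ± 0.168, with a 95% interval of -0.33 to 0.44 and an adjusted p of 0.888 in the edgeR test. Its sign changed with the library left out, over a range of -0.06 to 0.24.

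Dbp, the PAR bZIP factor that is a direct E-box target of the activators, had 129, 138 and 134 CPM in OP, against 169, 178 and 194 CPM in HFCF. The OP libraries lay close together and below all HFCF libraries. Group means were 134 ± 4.30 CPM in OP and 180.5 ± 12.3 CPM in HFCF, a log2 fold change of -0.43 ± 0.127 with a 95% interval, not adjusted for the number of genes, of -0.72 to -0.14. The adjusted p was 0.0766 in the edgeR test and 0.0157 by DESeq2. With 1 library left out the log2 fold change ran from -0.48 to -0.38. Dbp shares 539 exon bases on the opposite strand with Sphk2, a sphingosine kinase gene, in GENCODE M21, and whether counting used strand is not stated in the sources at hand. Sphk2 had 2940, 3678 and 2197 counts in OP and 3336, 2957 and 3112 in HFCF, fewer than the 6420 to 8768 counts of Dbp in OP and the 8166 to 11733 in HFCF, and its own log2 fold change was -0.25 (adjusted p = 0.375 in the edgeR test).

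Tef, a second PAR bZIP factor, had 262, 267 and 311 CPM in OP, against 318, 350.0 and 317 CPM in HFCF. The groups did not overlap, but OP replicate 3 lay just below the lowest HFCF library. On the log2 scale the difference was -0.23 ± 0.138, with a 95% interval of -0.54 to 0.088 and an adjusted p of 0.35 in the edgeR test.

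Hlf, the last of the PAR bZIP factors, lay on the other side, with 49.6, 51.4 and 31.0 CPM in OP, against 23.0, 26.8 and 42.0 CPM in HFCF. The groups overlapped, since HFCF replicate 3 was above OP replicate 3. The log2 fold change was 0.52 ± 0.269, with a 95% interval of -0.09 to 1.14 and an adjusted p of 0.267 in the edgeR test. The mitochondrial mRNA share was 7.48%, 6.08% and 14.4% in the OP libraries, against 22.03%, 18.8% and 14.1% in the HFCF libraries. Ranked by Hlf, the 6 libraries stood in exactly the reverse of their order by that share, a relation seen after the values were known. How many other genes follow that order was not counted. With the share, which itself moved with the group, as a covariate the log2 fold change of Hlf was -0.37 (adjusted p = 0.321 in the edgeR test).

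Nfil3, also called E4BP4, a repressor at the D-boxes that the PAR bZIP factors activate, had 21.6, 24.3 and 23.7 CPM in OP, against 27.0, 18.8 and 15.2 CPM in HFCF. The HFCF libraries were widely spread on both sides of the OP libraries. On the log2 scale the difference was 0.19 ± 0.210, with a 95% interval of -0.29 to 0.67 and an adjusted p of 0.62 in the edgeR test. It was 0.45 without HFCF replicate 1 and 0.019 without HFCF replicate 3, the ends of its range with 1 library left out.

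Usp2, a deubiquitinating enzyme whose transcript cycles strongly in liver, had 50.3, 32.5 and 47.0 CPM in OP, against 19.0, 23.7 and 31.4 CPM in HFCF. All OP libraries were above all HFCF libraries, with OP replicate 2 close to HFCF replicate 3. Group means were 43.3 ± 9.51 CPM in OP and 24.7 ± 6.28 CPM in HFCF, a log2 fold change of 0.81 ± 0.230 with a 95% interval, not adjusted for the number of genes, of 0.28 to 1.33. The adjusted p was 0.0718 in the edgeR test and 0.0126 by DESeq2. With 1 library left out the log2 fold change ran from 0.65 to 1.02 and the adjusted p of the edgeR test from 0.0485, without HFCF replicate 3, to 0.299. In the fit that included the mitochondrial share it was 0.64 (adjusted p = 0.389 in the same test). Usp2 shares 200 exon bases on the opposite strand with the predicted genes Gm49380 and Gm39325, whose counts ran from 0 to 5 in OP and from 0 to 73 in HFCF.

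**Figure D2:**
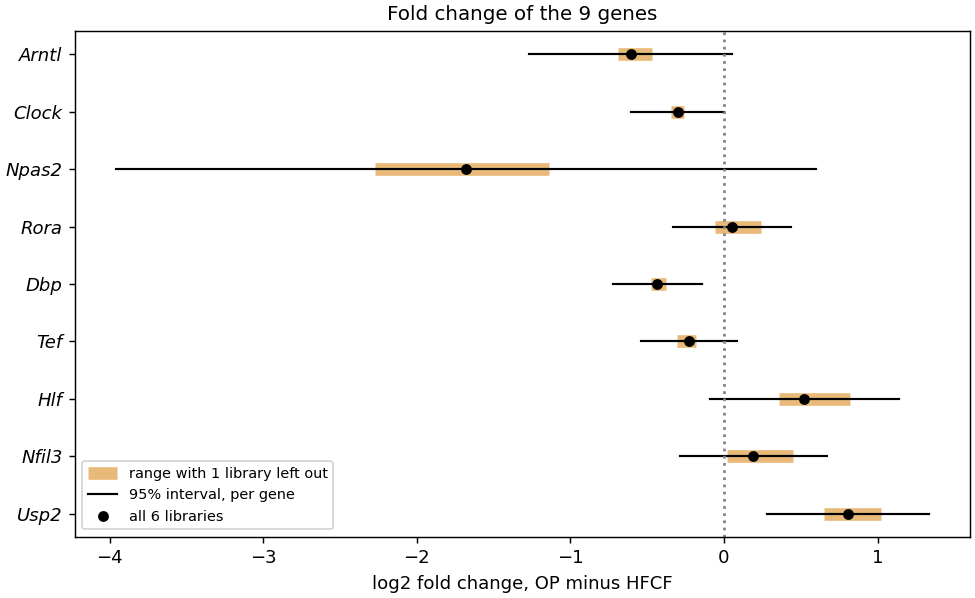
Log2 fold change, OP minus HFCF (horizontal axis), of each of the 9 genes with all 6 libraries (points), its 95% interval per gene (lines) and its range with 1 library left out (bands). The interval lies wholly to the left of 0 for Dbp and to the right of 0 for Usp2 and spans 0 for the other 7 genes.

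Set against each other per kilobase of exon (GENCODE M21 exon lengths), the members spanned a wide range of levels. Dbp was the highest at 44.6 ± 1.44 CPM per kb in OP and 60.3 ± 4.12 in HFCF, followed by Tef at 35.6 ± 3.46 in OP and 41.7 ± 2.41 in HFCF, and by Nfil3 at 11.5 ± 0.693 in OP and 10.04 ± 2.97 in HFCF. Usp2 (8.98 ± 1.97 CPM per kb in OP and 5.13 ± 1.30 in HFCF) and Hlf (6.59 ± 1.70 in OP and 4.58 ± 1.502 in HFCF) came next and overlapped each other in both groups. Rora stood at 2.38 ± 0.0277 CPM per kb in OP and 2.30 ± 0.492 in HFCF, and Clock at 1.18 ± 0.0692 in OP and 1.46 ± 0.0889 in HFCF. Arntl, at 0.188 ± 0.00514 CPM per kb in OP and 0.287 ± 0.0457 in HFCF, and Npas2, at 0.0203 ± 0.0181 in OP and 0.0677 ± 0.0108 in HFCF, were the lowest. The order by mean was the same in OP and in HFCF, and Usp2 and Hlf were the only neighbours in that order whose libraries overlapped within a group.

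**Figure D3:**
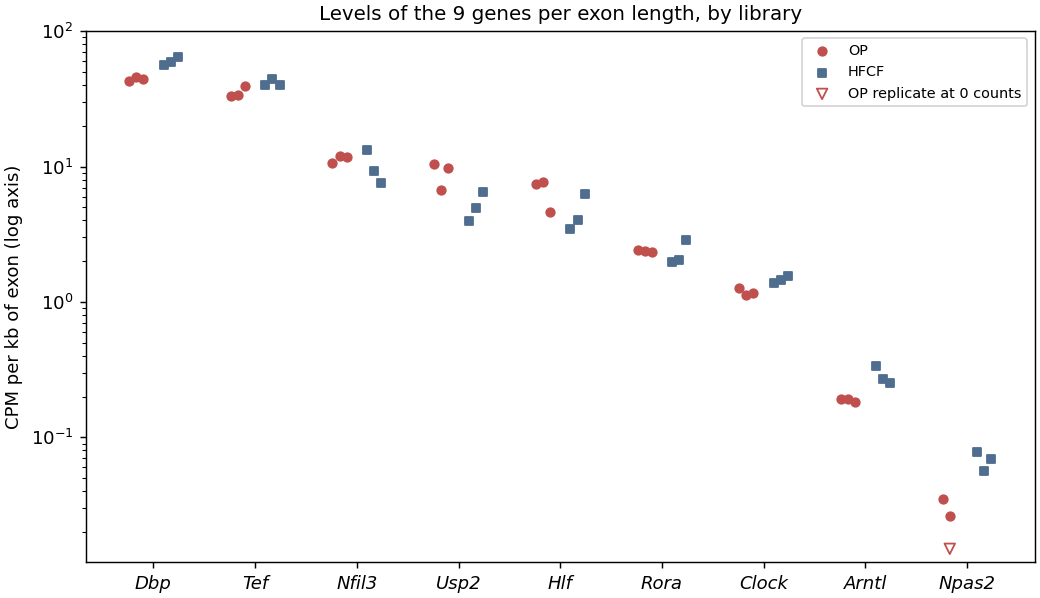
Level per kilobase of exon in CPM per kb (vertical log axis) of the 9 genes in each OP library (circles) and HFCF library (squares), ordered by the OP mean; the open triangle marks the OP library of Npas2 with 0 counts. Dbp and Tef stand at the top and Arntl and Npas2 at the bottom in both groups.

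Ratios of counts taken within a library need no scaling factor. Usp2 stood higher relative to Dbp in each OP library, with log2 ratios of -1.36, -2.09 and -1.51 in OP, against -3.16, -2.91 and -2.62 in HFCF, a difference of means of 1.25. Hlf did so too, with -1.38, -1.42 and -2.11 in OP, against -2.88, -2.73 and -2.21 in HFCF, a difference of 0.97. For Hlf, OP replicate 3 and HFCF replicate 3 were almost level. Nfil3 to Dbp was -2.58, -2.50 and -2.50 in OP, against -2.65, -3.24 and -3.67 in HFCF. The groups did not overlap for this ratio, but HFCF replicate 1 was close to OP. Dbp itself was lower in each OP library (log2 fold change -0.43), which raises any ratio to it in OP. By their own CPM, Hlf and Nfil3 overlapped between the groups. The share of all genes whose ratio to Dbp did not overlap was not counted. Arntl to Dbp was -6.50, -6.57 and -6.60 in OP, against -6.05, -6.45 and -6.67 in HFCF, and the OP libraries lay inside the range of the HFCF libraries. Arntl to Nr1d1, the gene of the repressor REV-ERB alpha, overlapped as well, at -5.22 ± 0.285 in OP and -5.43 ± 0.426 in HFCF. With 3 libraries against 3 these ratios are given as values, with no test.

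**Figure D4:**
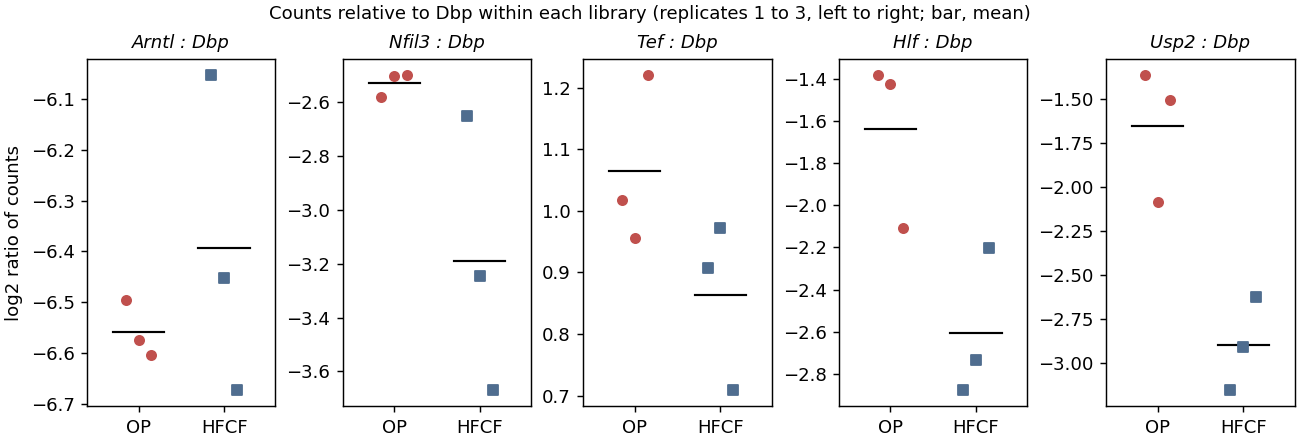
Log2 ratio of the counts of Arntl, Nfil3, Tef, Hlf and Usp2 to those of Dbp within each library (vertical axes, each with its own range), for OP (circles, left) and HFCF (squares, right), with the group mean as a bar. The groups stand apart for Usp2, narrowly so for Hlf and Nfil3, and overlap for Arntl and Tef. Dbp itself was lower in each OP library, which raises each ratio there.

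The other genes of the loop were read from the same fit. Their lists were chosen with earlier results of these data known, so the counts of calls are a description only. Among 10 clock repressors, 1 rose, 2 fell and 7 did not pass, with a median log2 fold change of -0.12. Over all genes tested, 3.26% were higher and 3.47% lower, with a median of 0.019. Per2, a PERIOD repressor, averaged 95.6 ± 32.9 CPM in OP and 31.3 ± 2.18 CPM in HFCF, a log2 fold change of 1.61 ± 0.257. Cry2, a CRYPTOCHROME repressor, averaged 26.9 ± 6.74 CPM in OP and 50.1 ± 4.84 CPM in HFCF (-0.90), and Nr1d1 53.7 ± 11.2 CPM in OP and 93.04 ± 14.4 CPM in HFCF (-0.79). The edgeR adjusted p was 0.0131 for Per2, 0.0373 for Cry2 and 0.0488 for Nr1d1. The exons of Nr1d1 overlap those of Thra on the opposite strand by 263 bases, and Thra was lower by the same measure (-0.79, adjusted p = 0.0196 in the same edgeR test). Per2 lost its call without OP replicate 1 or either of HFCF replicates 1 and 2 (log2 fold changes over the 6 libraries left out of 1.43 to 1.87), Cry2 without any library but OP replicate 3 (-1.05 to -0.71) and Nr1d1 whichever library was left out (-0.90 to -0.63). Cry2 and Nr1d1 also missed the threshold with total-count scaling (-0.89 and -0.79) or without a low-count filter (-0.91 and -0.81).

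Arntl2, a paralog of Arntl, fell: it had 0.9997, 0.928 and 0.937 CPM in OP, against 2.63, 3.41 and 2.61 CPM in HFCF, and the groups were far apart beside the spread within each. The log2 fold change was -1.59 ± 0.289 (adjusted p = 0.02 in the edgeR test), and it missed the threshold without OP replicate 1 or either of HFCF replicates 1 and 2 (-1.66 to -1.49). Per kilobase, Arntl2 stood at 0.168 ± 0.00689 CPM in OP and 0.507 ± 0.08 CPM in HFCF, so its mean was below that of Arntl in OP and above it in HFCF. Among 12 kinases, ligases and cofactors of clock proteins, Cipc, which binds CLOCK and inhibits it, rose to 73.4 ± 21.5 CPM in OP, against 29.6 ± 11.9 CPM in HFCF (1.31 ± 0.304, adjusted p = 0.0415 in the same edgeR test). The other 11 did not pass, while 6.73% of all genes tested passed. The median of the 12 was 0.068, against 0.019 over all genes tested. Cipc kept its call only without HFCF replicate 3, over a range of 1.04 to 1.68, and lost it without a low-count filter (1.29). Over all genes tested, 86 were called higher and 117 lower without OP replicate 1, 52 and 60 without HFCF replicate 1, and 655 and 655 without OP replicate 3. With all 6 libraries 567 were called higher and 603 lower, and 298 and 400 without the filter.

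Of 7 genes listed as E-box or ROR element outputs, 4 rose, 1 fell and 2 did not pass, with a median log2 fold change of 0.90. Of all genes tested 3.26% were higher and 3.47% lower, with a median of 0.019. This list too was chosen with earlier results known. Wee1, a kinase that holds back mitosis, averaged 11.95 ± 1.005 CPM in OP and 4.42 ± 0.694 CPM in HFCF (1.43 ± 0.188). Noct, which encodes nocturnin, averaged 99.1 ± 45.1 CPM in OP and 28.1 ± 4.32 CPM in HFCF (1.82 ± 0.347). Nampt, the rate-limiting enzyme of NAD salvage, rose by 1.05 and the tetraspanin gene Tspan4 by 0.90. Gys2, the glycogen synthase of liver, averaged 205 ± 29.2 CPM in OP and 418 ± 19.3 CPM in HFCF (-1.03 ± 0.153). The edgeR adjusted p ran from 0.00693 for Wee1 to 0.0229 for Noct. Without HFCF replicate 2 none of the 5 kept its call. Without HFCF replicate 1 Wee1 kept its call, and without OP replicate 1 Wee1 and Tspan4 did. Over all genes tested, 52 were called higher and 60 lower without HFCF replicate 1, and 86 and 117 without OP replicate 1. With all 6 libraries 567 were called higher and 603 lower. Without HFCF replicate 3 Noct lost its call. Over the 6 libraries left out the log2 fold changes were 1.31 to 1.49 for Wee1, 1.57 to 2.16 for Noct, 0.86 to 1.19 for Nampt, 0.84 to 1.02 for Tspan4 and -1.10 to -0.92 for Gys2.

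Among known targets of the PAR bZIP factors, 10 of 11 genes were tested, of which 1 rose, 1 fell and 8 did not pass. Of all genes tested 3.26% were higher and 3.47% lower. The median log2 fold change of the 10 was 0.77, against 0.019 over all genes tested. Cyp2a5, a cytochrome P450 that hydroxylates coumarin, averaged 1860.03 ± 569 CPM in OP and 666 ± 220 CPM in HFCF (1.48 ± 0.303). Its near-identical copy Cyp2a4 makes the split of reads between them uncertain. Cyp7a1, an enzyme of bile acid synthesis, averaged 96.1 ± 10.97 CPM in OP and 212 ± 47.0 CPM in HFCF (-1.14 ± 0.190). The edgeR adjusted p was 0.0285 for Cyp2a5 and 0.0149 for Cyp7a1. Both lost their calls without OP replicate 1 or either of HFCF replicates 1 and 2, and Cyp2a5 also without OP replicate 3. The ranges were 1.32 to 1.79 for Cyp2a5 and -1.29 to -0.97 for Cyp7a1. Over all genes tested, 86 were called higher and 117 lower without OP replicate 1, 52 and 60 without HFCF replicate 1, and 655 and 655 without OP replicate 3. With the mitochondrial share as a covariate, Cry2 (-1.47) and Nr1d1 (-1.37) kept an adjusted p under 0.05 in the edgeR test. The other 10 of the 12 clock pathway genes outside the 9 that had passed did not, with log2 fold changes of the same sign. Of all 17394 genes that fit called 110 higher and 97 lower, against 567 and 603 without the covariate.

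**Figure D5:**
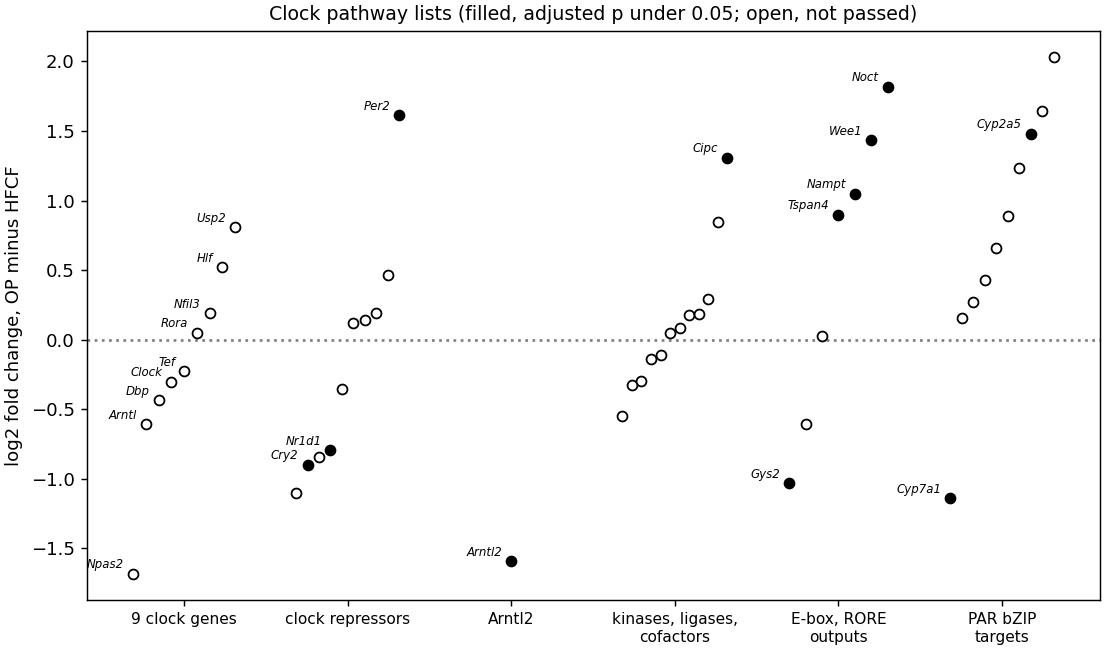
Log2 fold change, OP minus HFCF (vertical axis), of each tested gene of the 9 clock genes and of 5 further lists of clock genes, sorted within each list. Filled points passed an adjusted p of 0.05 in edgeR's quasi-likelihood test and open points did not. None of the 9 clock genes is filled. Among the repressors 3 are filled and among the E-box and ROR element outputs 5, while 6.73% of all genes tested passed.

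The genes most like Arntl across the 6 libraries, by Pearson's r of log2 CPM among 9100 genes of at least 5 CPM, were Pald1 (0.996), Phldb3 (0.992), the insulin receptor substrate gene Irs2 (0.991), Rundc3a (0.990) and the mitochondrial carrier gene Slc25a25 (0.989). Irs2 had 12.2, 13.3 and 10.2 CPM in OP, against 33.1, 23.6 and 19.8 CPM in HFCF, with HFCF replicate 1 the highest as for Arntl. Those most like Dbp were the casein kinase gene Csnk1g1 (0.996), the RNA helicase gene Ddx17 (0.996), Luc7l (0.993), Spata13 (0.992) and Cenpl (0.992). Ddx17 had 216, 237 and 238 CPM in OP, against 365, 390 and 437 CPM in HFCF, with HFCF replicate 3 the highest as for Dbp. Such values rest on 6 libraries that share the split into OP and HFCF, and they are a description only.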

How the data were processed

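The authors deposited 1 table of raw counts per gene with a column per library; cutadapt 1.9, FastQC and the build GRCm39 are named in the submitters' processing notes, while the sources used here give no aligner, counting tool or strand setting. Samples were grouped by their descriptions into OP and HFCF (3 each). Symbols were matched on Ensembl identifiers for 55141 of 55401 genes. Genes were kept by filterByExpr (17394 of 27893 with any count), scaled by TMM and tested for OP minus HFCF, two-sided, with edgeR 4.0.16 (glmQLFit, glmQLFTest) in R 4.3.3. P-values were adjusted after Benjamini and Hochberg over the 17394 genes, at a threshold of 0.05. The SE is the fold change over the square root of F, and 95% intervals use the fit's degrees of freedom. Pearson's r used log2 CPM with a prior count of 2. The method was also run on simulated counts, drawn independently with the dispersions of the same fit. These did not include read pairs counted several times, and no result here rests on them.

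The 9 genes and the lists were chosen with earlier results of these data known. Named by rule were all 9, the genes of each list with an adjusted p under 0.05 or the smallest p, and the 5 genes most like Arntl and Dbp. Other listed genes enter the counts and medians of their lists. Sphk2, Thra, Cfd and the overlapping predicted genes were added after their values were seen, and 1 further gene was left out of the lists and is not reported here. Alternatives were DESeq2 1.42.0, limma-voom (limma 3.58.1), RLE, upper quartile and total-count scaling, no filter, 1 CPM in 3 libraries, robust dispersion, a replicate block, counts divided by 4, mitochondrial genes left out, the mitochondrial share as a covariate, and each library left out. Exon lengths and overlaps came from GENCODE M21 (GRCm38), used for no coordinates of genes. Figures used matplotlib 3.10.9. No pair of replicates agreed within sampling noise (chi-square per degree of freedom of 46.2 or more).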

Additional observations from a re-analysis of the deposited data

How the results depend on the processing

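With all 6 libraries, edgeR's quasi-likelihood test called 567 genes higher and 603 lower in OP, and 0 of the 9 clock genes. DESeq2 called 1252 higher and 1262 lower, and 1 clock gene higher (Usp2) and 1 lower (Dbp). Without a low-count filter 298 were higher and 400 lower, and 110 and 97 in a fit that included the mitochondrial share. That covariate turned the sign of Rora (-0.23) and Hlf (-0.37) and gave -3.44 for Npas2, 0.65 for Nfil3 and -0.071 for Tef. With 1 library left out, 34 to 655 genes were higher, 54 to 655 lower, 0 to 1 clock genes higher and 0 lower, and Rora ran from -0.060 to 0.24. The replicate number as a block gave 87 higher and 93 lower and called 0 clock genes and 2 (Cipc and Wee1) of the 12 further clock pathway genes, the other 10 having adjusted p of 0.0502 to 0.165 in that edgeR fit. Deviations of same-numbered samples correlated at 0.0229, -0.126 and -0.164, and no sample correlated best with its own number. With 3 samples in each group these values cannot settle whether the numbers pair the samples. The cause of these shifts was not tested. Npas2 was not tested with counts divided by 4 or the filter of 1 CPM. Npas2 rests on 0 to 20 counts per library and Arntl on 66 to 123.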
